A study of Mus musculus with 36 samples.

Results

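The 9 genes described here, *Pcp4*, *Elavl4*, *Kif5c*, *Syt9*, *Sel1l3*, *Trim2*, *Vat1l*, *Naaa* and *St8sia6*, were selected because their RNA was lower in mouse nephron progenitor cells (NPCs) that had lost β-catenin in a low Wnt setting. They are 9 of the 30125 genes listed in at least 1 of the 3 expression tables of the series, and each of them is listed in all 3. They were selected on the differences between intact cells and cells in low CHIR whose β-catenin had been lost through Cre or through Cas9, so these falls are given as a description and without a test. Their levels across Wnt doses in wild-type cells, after removal in high CHIR and after loss of the Tcf/Lef factors did not enter the choice, and those were tested.

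β-catenin has separate roles at the membrane, where it joins cadherins to the cytoskeleton, and in the nucleus, where it is a coactivator of transcription. In the absence of a Wnt signal a destruction complex that contains the kinase GSK3β marks it for degradation. CHIR99021 (CHIR), an inhibitor of GSK3β, stabilizes β-catenin and takes the place of a Wnt ligand in culture. Stabilized β-catenin binds the DNA-bound factors Tcf7, Lef1, Tcf7l1 and Tcf7l2. In the embryonic kidney NPCs renew in a weak Wnt environment and form the nephron in a strong one, and cultured NPCs are held in the renewing state with low CHIR and driven towards differentiation with high CHIR. The genes selected here include several better known from neurons than from the kidney, such as the calmodulin-binding protein gene *Pcp4*, the RNA-binding protein gene *Elavl4* and the motor protein gene *Kif5c*.

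The series measured RNA by sequencing in 36 libraries in 15 groups, all from primary NPCs that had been isolated from E16.5 mouse embryonic kidneys by depleting the other cell types with magnetic beads and grown in nephron progenitor expansion medium (NPEM). In the first experiment wild-type NPCs were kept in no (0 µM), low (1.25 µM) or high (5 µM) CHIR, with n = 3 libraries each. In the second, with n = 2 libraries in each of 8 groups, NPCs homozygous for a conditional allele of the β-catenin gene *Ctnnb1* (genotype B-catenin_c_c) received Cre mRNA (Cre-pos) or none (Cre-neg), and NPCs that express Cas9 (genotype Cas9-eGFP) received 4 guides to *Ctnnb1* or a guide to GFP. Those cells were lipofected together with mCherry mRNA, kept for 24 hours in low CHIR while β-catenin was lost, then kept for 24 hours in low or high CHIR and sorted for mCherry. In the third, Cas9-eGFP NPCs received guides to all 4 Tcf/Lef genes (QKO) or the GFP guide for 48 hours before the final 24 hours in low or high CHIR, with n = 2 libraries for QKO in low CHIR and n = 3 for the other groups. The manipulated cells were sorted populations rather than clones, so removal need not have been complete in every cell. The paper's staining found a partial loss of membrane β-catenin protein in transfected cells with guides and with Cre. The labels do not state that libraries of a group came from separate animals or cultures, so p-values measure the spread between these libraries, which may be partly technical. The libraries held 13089780 to 76071568 reads on genes, with a median of 18990328.5.

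RNA of the targeted genes gave a limited check of the knockouts. In high CHIR *Ctnnb1* was 2632 and 2701 normalized counts with the GFP guide and 1629.9 and 1270.1 with the *Ctnnb1* guides (log2 fold change -0.89, limma adjusted p = 0.0432), but 2423 and 2207 in Cre-neg and 2254 and 2583 in Cre-pos cells. Cre removes part of the gene while reads on the remaining exons still count, so the RNA level does not check removal in the Cre pair. In QKO cells *Tcf7* was lower in high CHIR (log2 fold change -1.64, limma adjusted p = 0.0175), whereas *Lef1* (-2.12, 0.130), *Tcf7l2* (-0.35) and *Tcf7l1* (0.15) did not pass the test, and none of the 4 passed it in low CHIR (*Tcf7* -1.23, *Lef1* 0.13, *Tcf7l1* -0.88, *Tcf7l2* -0.15). Guide-directed cuts need not lower the amount of RNA. The 10 nephron progenitor genes listed as markers, *Six2* and *Cited1* among them, were detected in every low CHIR library. Their summed level fell from 29012 to 33375 normalized counts over the wild-type libraries in no CHIR to 18191 to 24019 in low and 4383 to 9799 in high CHIR. The higher sum in no than in low CHIR was not shared by all 10, whose median log2 fold change in no against low CHIR was -0.25. These are whole-population measurements, in which a smaller share of cells expressing a gene and less RNA per cell cannot be told apart.

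Before their values, the start regions of the genes that climbed throughout the dose series are shown. *Kif5c*, *Trim2* and *St8sia6* rose at both dose steps in wild-type NPCs, and their promoter windows were read for the core of the Tcf/Lef recognition sequence, CTTTGA, or TCAAAG on the other strand. Sequences come from RefSeq on GRCm38.p6, run 5′ to 3′ on the strand of the gene, and carry a match in capitals. The *St8sia6* window lies within the first exon of the GENCODE model, so only 30 bases around its match are given. The *Trim2* window is the second of 5 that RefSeq starts give this gene, and the printed stretch leaves out the 8 annotated exonic bases next to that start.
Kif5c, chr2:49619036-49619285, plus strand: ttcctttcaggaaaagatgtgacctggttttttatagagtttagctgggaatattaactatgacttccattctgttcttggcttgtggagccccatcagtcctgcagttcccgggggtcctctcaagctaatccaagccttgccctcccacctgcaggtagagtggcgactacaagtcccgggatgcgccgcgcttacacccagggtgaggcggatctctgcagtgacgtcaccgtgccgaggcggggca
Trim2, chr3:84270792-84271033, minus strand: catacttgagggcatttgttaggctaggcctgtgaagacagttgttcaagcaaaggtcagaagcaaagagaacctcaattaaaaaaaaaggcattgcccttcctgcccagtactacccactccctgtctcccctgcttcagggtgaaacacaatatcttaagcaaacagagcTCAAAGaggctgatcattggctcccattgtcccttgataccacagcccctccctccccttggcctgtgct
St8sia6, chr2:13793565-13793594, minus strand: ccgcgccaccgcCTTTGAacgctgggggtg
The match in *Trim2* begins 78 bases before the start and that in *St8sia6* 62 bases before it, whereas *Kif5c* carried none. RefSeq windows of 250 bases before to 50 after a start were present for 8 of the 9 genes, *Sel1l3* being the exception, and 2 of these 15 windows held a match (13.3%), against 16.003% of all 32851 windows. The share in these genes was thus close to that of starts in general, and the absence of a match says only that these letters are not in the window.

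The removal experiment in low CHIR defined the genes. Throughout, levels are normalized counts, the authors' read counts divided by a size factor for each library, and differences are log2 fold changes on log2(normalized count + 1). *Pcp4*, whose product binds calmodulin, was 599 and 598 normalized counts in Cre-neg cells and 73.5 and 96.6 in Cre-pos cells, and it was 563 and 700.2 with the GFP guide and 164 and 231 with *Ctnnb1* guides. *Sel1l3*, a poorly characterized member of the Sel1-like repeat family, was 1022 and 1069 against 175 and 156 in the Cre pair and 789.9 and 667 against 288 and 177 in the Cas9 pair. After removal the cells thus kept 14.2% and 31.3% of the *Pcp4* mean and 15.8% and 31.9% of the *Sel1l3* mean. These were the 2 deepest falls of the set when each gene is ranked by its smaller fall.

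*St8sia6*, a sialyltransferase of the α2,8 family, was low even in intact cells, at 75.5 and 102 in Cre-neg and 72.5 and 59.5 in GFP-guide cells, and went to 10.3 and 12.9 and to 36.6 and 19.3 after removal. *Naaa*, a lysosomal amidase that hydrolyses N-acylethanolamines, stood at the other end, with 1567 and 1387 against 544 and 469.9 with Cre and 1268 and 1333 against 812 and 725 with guides. In the other 5 genes the level left after removal was 28.5% to 46.7% with Cre and 40.8% to 50.5% with guides. The libraries of the compared groups did not overlap for any of the 9 genes in either pair, which the choice of genes favours. With n = 2 libraries a group such separation is common, and its share over all genes was not counted. Ranked by the smaller of both falls among 16780 genes, the members ran from *Pcp4* at rank 4 and *Sel1l3* at rank 5 (smaller falls of -1.69 and -1.68 on the log2 scale) down to *Elavl4* at rank 50 and *Naaa* at rank 114 (-0.76), and the gene next after *Naaa* was *Sh3rf3* at rank 115 (-0.76). Of 45 genes that were lower by at least 1 log2 unit in both pairs, 6 are members. In those contrasts 0.149% of all genes tested were called lower with Cre and 0.0179% with guides, figures given as background to the choice.

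**Figure D1:**
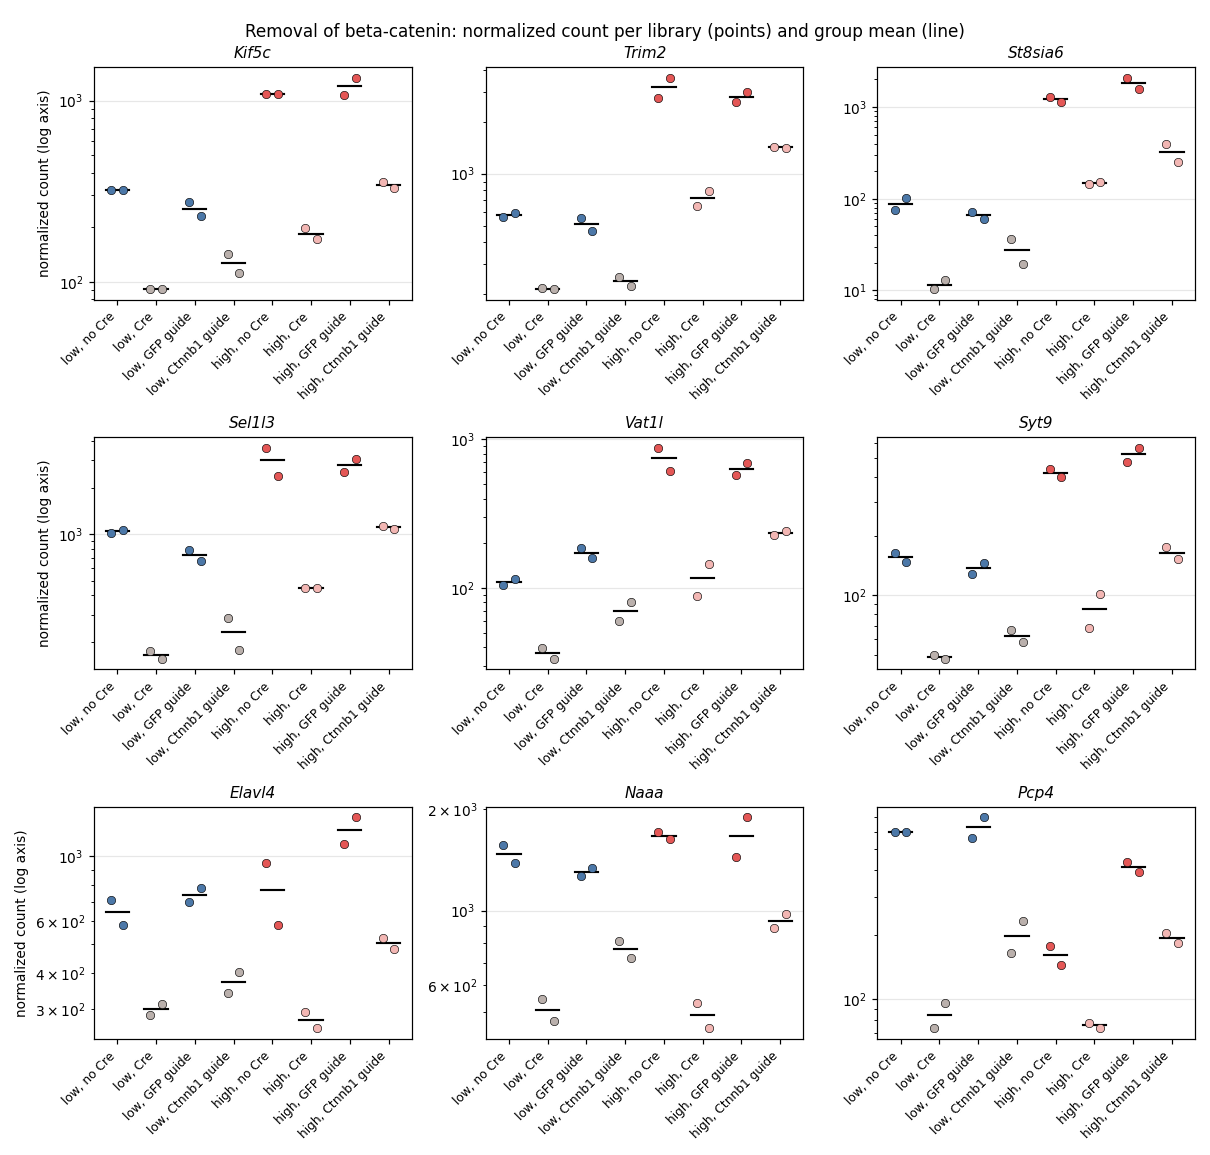
Normalized counts of the 9 genes in each library of the β-catenin removal experiment (vertical axis, log scale), by group, with a point for each of the 2 libraries of a group and a line at the group mean. For every gene the libraries with β-catenin removed lie under their intact controls in both CHIR doses. The share of all genes that do so was not counted.

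Removal in high CHIR compared libraries that the choice had not used, and all 9 genes were lower there as well. The spread in the test was estimated over all 16 libraries of the experiment. Those include the low CHIR libraries that took part in the choice, which may favour calls. With Cre all 9 passed the test against 2.75% of all genes tested called lower, and with *Ctnnb1* guides all 9 passed it against 1.64%. The median difference was -2.32 with Cre and -1.33 with guides, whereas over all genes it was -0.015 and -0.00018. The high CHIR libraries carry the same replicate numbers as the low CHIR ones and may come from the same transfected cultures, in which case they are not wholly separate from the selection.

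The deepest fall in high CHIR was that of *St8sia6*, from 1287 and 1148 to 143 and 153 with Cre and from 2075 and 1557 to 399 and 252 with guides (log2 fold change -3.03, SE 0.33, adjusted p = 6.68e-05 with Cre, log2 fold change -2.50, SE 0.33, adjusted p = 0.000618 with guides, limma). Even so, the level left after removal in high CHIR was above that of intact cells in low CHIR in all 4 libraries. *Sel1l3* went from 3635 and 2391 to 447 and 444 with Cre (log2 fold change -2.72, SE 0.24, adjusted p = 9.58e-06) and from 2520.1 and 3071 to 1123 and 1087 with guides (log2 fold change -1.33, SE 0.24, adjusted p = 0.00525). *Vat1l*, which encodes a protein resembling the vesicle amine transport protein Vat1, went from 880.0 and 614 to 87.8 and 146 (log2 fold change -2.69, SE 0.29, adjusted p = 5.60e-05) and from 580.0 and 688 to 227 and 243 (log2 fold change -1.43, SE 0.29, adjusted p = 0.0120). In each of these comparisons the libraries of the paired groups were well apart.

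*Kif5c*, a heavy chain of the conventional kinesin that moves cargo along microtubules, fell from 1085 and 1084 to 197 and 171 with Cre (log2 fold change -2.56, SE 0.20, adjusted p = 4.47e-06) and from 1066 and 1331 to 354 and 328 with guides (log2 fold change -1.80, SE 0.20, adjusted p = 0.000150). *Syt9*, a synaptotagmin that senses calcium in vesicle release, fell from 439 and 404 to 68.7 and 102 (log2 fold change -2.32, SE 0.25, adjusted p = 6.57e-05) and from 481 and 567 to 176 and 153 (log2 fold change -1.66, SE 0.25, adjusted p = 0.00175). After removal in high CHIR both genes were thus under the level of intact low CHIR cells in the Cre pair (319.8 and 321 for *Kif5c*, 165 and 148 for *Syt9*) and above it in the Cas9 pair (276 and 229, and 128 and 147). *Trim2*, a ubiquitin ligase of the tripartite motif family, fell from 2754 and 3595 to 647 and 790.5 with Cre (log2 fold change -2.14, SE 0.18, adjusted p = 6.43e-06) and from 2601 and 2984 to 1430.1 and 1414 with guides (log2 fold change -0.97, SE 0.18, adjusted p = 0.00640).

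With Cre the shallowest falls in high CHIR were those of *Pcp4*, *Elavl4* and *Naaa*, and with guides those of *Naaa*, *Trim2* and *Pcp4*. *Pcp4* went from 177 and 144 to 77.7 and 74.1 with Cre (log2 fold change -1.06, SE 0.24, adjusted p = 0.0129) and from 435 and 389 to 204 and 182 with guides (log2 fold change -1.09, SE 0.24, adjusted p = 0.0193). In Cre-pos cells *Pcp4* lay between 73.5 and 96.6 in both CHIR doses. *Elavl4*, an RNA-binding protein of the Hu family, went from 945 and 584 to 295 and 259 (log2 fold change -1.42, SE 0.23, adjusted p = 0.00125) and from 1101 and 1359 to 524 and 484 (log2 fold change -1.28, SE 0.23, adjusted p = 0.00488). *Naaa* went from 1706 and 1627 to 530.1 and 447 (log2 fold change -1.77, SE 0.17, adjusted p = 2.45e-05) and from 1445 and 1893 to 887 and 979 (log2 fold change -0.83, SE 0.17, adjusted p = 0.0147).

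With n = 2 libraries a group the calls of the Cas9 pair were fragile, and members lost theirs when 1 library was left out. Such fits leave a group with 1 library, so only their effect sizes are given. These ran from -2.83 to -2.17 for *St8sia6*, the deepest fall, and from -1.02 to -0.63 for *Naaa*, the shallowest. In the Cre pair *Pcp4* ran from -1.21 to -0.92 in such fits and did not always keep its call. Both *Pcp4* and *Elavl4* (limma adjusted p = 0.0568) lost their calls when the spread was estimated from the 4 libraries compared alone. The summed level of the 7 stroma markers moved along with removal, at 3559.6 to 4819 in Cre-neg against 6366 to 11761 in Cre-pos libraries and 3694 to 12544 with the GFP guide against 11314 to 17861 with *Ctnnb1* guides. Endothelial markers, all 6 in the table, moved with it, at 197 to 226 against 267 to 522 with Cre and 283 to 317 against 462 to 467 with guides, and ureteric markers (6 of 7) went the other way with Cre, from 226 to 388 to 193 to 221. The part of these lists in the result was not tested. Nephron progenitor markers, all 10 detected, summed to 13287 to 17994 in Cre-neg and 13385 to 15485 in Cre-pos libraries.

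The fall was numerically larger with Cre than with guides for 8 of the 9 genes in high CHIR, but the difference between both methods passed the test for none, in limma with adjustment over all 16780 genes, of which 0% were called. At an unadjusted p under 0.05 there were 5 members and 560 genes. The largest were *Sel1l3*, at -1.39 (95% interval -2.12 to -0.67, adjusted p = 0.774), *Vat1l*, at -1.26 (-2.14 to -0.38), and *Trim2*, at -1.17 (-1.71 to -0.62, 0.607), and *Pcp4* showed 0.028 (-0.70 to 0.76). On whole reads recovered from the values edgeR called no member either, and DESeq2 called *Trim2* (-1.17, adjusted p = 0.0287).

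The wild-type series asked how the genes follow the Wnt dose in unmanipulated NPCs, where no CHIR is the lowest β-catenin input. Relative to low CHIR, 5 of the 9 were lower in no CHIR and passed the test, *St8sia6*, *Trim2*, *Sel1l3*, *Kif5c* and *Elavl4*, against 2.6% of all genes tested called lower, and none was called higher (2.37% of all genes). *Pcp4* was the only member whose no and low CHIR libraries overlapped, but the share of all genes without overlap was not counted. At an unadjusted limma p under 0.05 there were 6 members and 3884 of 17411 genes. The median difference was -1.47, against 0.011 over all genes.

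*St8sia6* was nearly silent without CHIR, at 14.8, 8.78 and 11.2 normalized counts, against 243, 157 and 125 in low CHIR (log2 fold change -3.78, SE 0.45, adjusted p = 0.00311, limma). *Trim2* was 353, 219.5 and 225 in no CHIR and 1992, 1449 and 1223 in low CHIR (log2 fold change -2.55, SE 0.24, adjusted p = 0.00123). *Sel1l3* was 501, 474 and 357 in no CHIR and 2067, 1983 and 1820.4 in low CHIR (log2 fold change -2.15, SE 0.19, adjusted p = 0.00107). These 3 genes thus kept 6.63%, 17.1% and 22.7% of their low CHIR mean without CHIR.

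*Kif5c* was 277, 176 and 219 in no CHIR and 978, 734 and 746 in low CHIR (log2 fold change -1.88, SE 0.31, adjusted p = 0.0117). *Elavl4* was 555, 624 and 459 in no CHIR and 1392, 1325 and 1238 in low CHIR (log2 fold change -1.28, SE 0.31, adjusted p = 0.0456). Both calls depended on the number of libraries: *Elavl4* lost its call without any 1 of the 6 libraries (adjusted p = 0.0720 to 0.184), and *Kif5c* lost it without no CHIR replicate 2 or 3 or low CHIR replicate 1 or 2 (0.0512 to 0.0625), which leaves 3 members called.

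*Syt9*, at 151, 192 and 114 in no and 455, 428 and 326 in low CHIR (log2 fold change -1.41, SE 0.68, adjusted p = 0.250), and *Vat1l*, at 47.9, 58.5 and 67.02 in no and 126, 175 and 188 in low CHIR (log2 fold change -1.47, SE 0.51, adjusted p = 0.126), did not pass the test, although their libraries were apart. The limma fit shares 1 estimate of the spread over all 9 wild-type libraries, and with only the 6 libraries compared both passed it (adjusted p = 0.0140 and 0.0180). *Naaa* was 1373, 1491 and 1233 in no CHIR and 1547, 1733 and 2101 in low CHIR (log2 fold change -0.39, SE 0.53, adjusted p = 0.729). *Pcp4* was 609, 1472 and 708 in no CHIR and 1024, 1050.1 and 1418 in low CHIR, so that no CHIR replicate 2 was the highest of the 6, and the interval of its difference, -3.71 to 2.87, left either direction possible.

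**Figure D2:**
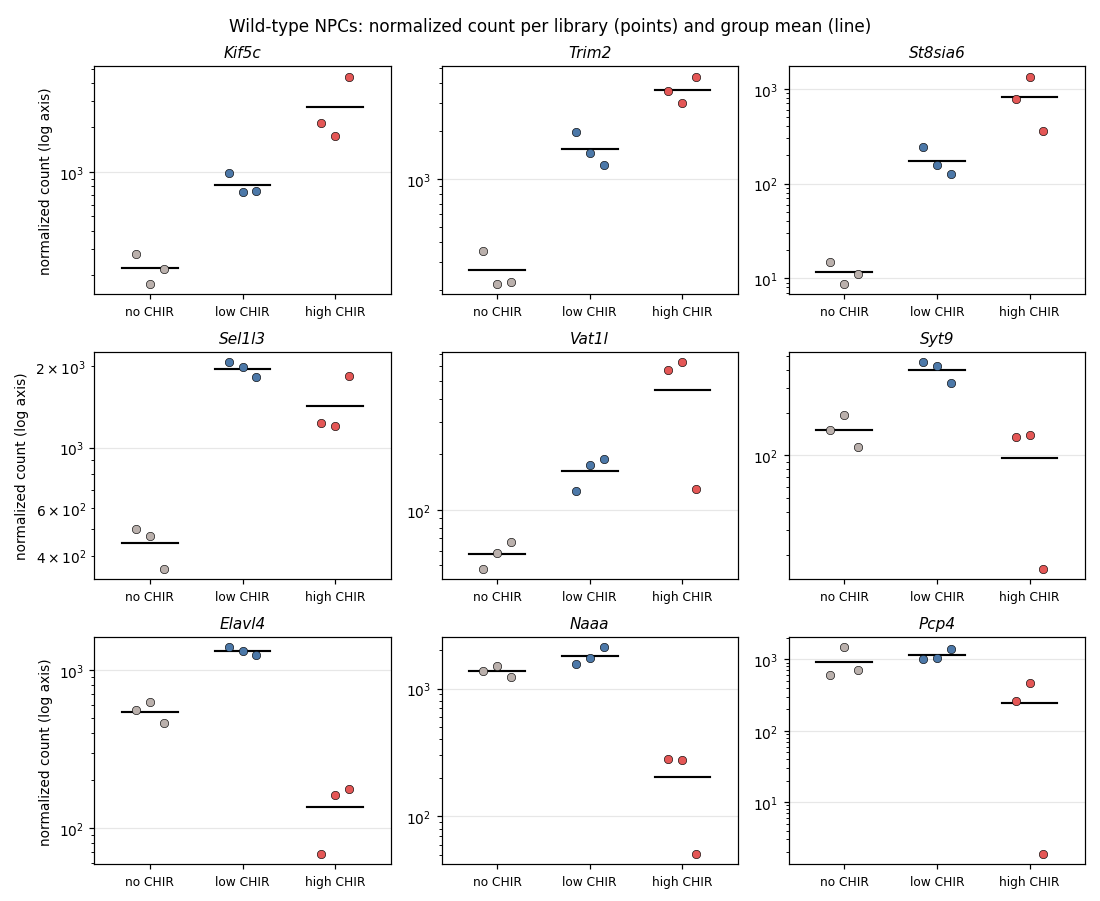
Normalized counts of the 9 genes in the wild-type libraries (vertical axis, log scale) in no, low and high CHIR, with a point for each of the 3 libraries and a line at the group mean. *Kif5c*, *Trim2* and *St8sia6* climb at both steps, whereas *Elavl4*, *Syt9* and *Naaa* peak in low CHIR.

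From low to high CHIR the set divided. In wild-type NPCs 3 genes rose and passed the test, *Kif5c*, *Trim2* and *St8sia6*, against 5.33% of all genes tested called higher, and 3 fell, *Elavl4*, *Syt9* and *Naaa*, against 5.05% called lower. The median difference was -0.49, against 0.0094 over all genes. *St8sia6* went from 243, 157 and 125 to 773, 1339 and 357 (log2 fold change 2.09, SE 0.45, adjusted p = 0.0146), and it lost its call without low CHIR replicate 2 (adjusted p = 0.0570) or 3 (0.0729). *Kif5c* went from 978, 734 and 746 to 2146, 1762 and 4405 (log2 fold change 1.65, SE 0.31, adjusted p = 0.00747). *Trim2* went from 1992, 1449 and 1223 to 3588, 2993 and 4405 (log2 fold change 1.25, SE 0.24, adjusted p = 0.00817). Over the whole range from no to high CHIR the means of these genes rose 71.1-fold for *St8sia6*, 13.8-fold for *Trim2* and 12.4-fold for *Kif5c*.

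*Elavl4* fell to 68.3, 162 and 176 in high CHIR (log2 fold change -3.39, SE 0.31, adjusted p = 0.000135), under its level in no CHIR too (log2 fold change -2.11, SE 0.31, adjusted p = 0.00102). *Naaa* fell to 282, 276 and 50.5 (log2 fold change -3.48, SE 0.53, adjusted p = 0.00248). *Syt9* fell to 134, 139.6 and 15.9 (log2 fold change -2.54, SE 0.68, adjusted p = 0.0379), a call that was lost without low CHIR replicate 1 (adjusted p = 0.116), 2 (0.113) or 3 (0.0966). All 3 genes were thus highest in low CHIR, although for *Naaa* the step from no to low CHIR did not pass the test and for *Syt9* it did not either.

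The remaining 3 genes turned on 1 library. Replicate 3 of wild-type cells in high CHIR had the lowest *Pcp4* (258, 468 and 1.87 in the 3 libraries), *Naaa*, *Syt9*, *St8sia6* and *Vat1l* (569, 631 and 129.9) of its group and the highest *Kif5c*, *Trim2*, *Elavl4* and *Sel1l3* (1232, 1202 and 1834), together with the lowest sum of the 10 nephron progenitor markers, 4383 against 8938 and 9799. None of *Pcp4* (log2 fold change -4.03, SE 1.48, adjusted p = 0.119), *Vat1l* (log2 fold change 1.16, SE 0.51, adjusted p = 0.192) and *Sel1l3* (log2 fold change -0.49, SE 0.19, adjusted p = 0.148) passed the test with all libraries. Without that library all 9 genes were called. Over all genes the number called ran from 995 to 2207 as 1 library at a time was left out of this comparison. The share of all genes called in that single fit is not given, so its 9 calls have no background of their own. Without replicate 3 of high CHIR, *Pcp4* was lower (-1.73, adjusted p = 0.0132), *Sel1l3* was lower (-0.68, 0.0212) and *Vat1l* was higher (1.89, 0.00124) in high than in low CHIR. *Pcp4* was also called without high CHIR replicate 2, at -5.40 (0.0401).

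Against no CHIR, 7 of the 9 genes passed the test in high CHIR, where 23.4% of all genes did, with 5 higher (11.4% of all genes) and 2 lower (12% of all genes). Beside the 3 that climbed at both steps, *Sel1l3* (log2 fold change 1.66, SE 0.19, adjusted p = 0.000256) and *Vat1l* (log2 fold change 2.63, SE 0.51, adjusted p = 0.00462) were higher, and *Elavl4* and *Naaa* (log2 fold change -3.10, SE 0.53, adjusted p = 0.00238) were lower. *Pcp4* (log2 fold change -3.61, SE 1.48, adjusted p = 0.103) and *Syt9* (log2 fold change -1.13, SE 0.68, adjusted p = 0.255) did not pass, *Pcp4* being called only without high CHIR replicate 2 or 3 (adjusted p = 0.0335 and 0.0283). Markers of several other cell types moved along with dose. For the neuron list the summed level over the 10 of 12 genes in the wild-type table was 1137 to 3444 in high CHIR, against 168 to 402 in no and 183 to 345 in low CHIR, with *Gap43* alone at 589 to 3142 in high CHIR. Of that list *Stmn3*, *Th* and *Prph* were at 0 in at least 1 high CHIR library. Ureteric markers (6 of 7 in the table) summed to 351 to 711 in low and 2360.1 to 5916 in high CHIR, most of it from *Gata3* and *Krt18*, with *Elf5* at 0 in at least 1 high CHIR library. Endothelial markers (6 of 6) summed to 312 to 371 and 992 to 1811, with *Cdh5* at 0 in at least 1 high CHIR library. Blood markers (5 of 6) went down, from 665 to 805 to 194 to 292, with *Ptprc* and *Hba-a1* at 0 in at least 1 high CHIR library. The sums of low and high CHIR libraries did not overlap for any of these 4 lists, and their part in the dose results was not tested.

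The same dose step in the manipulated cultures gave another picture for part of the set. In the intact controls of the β-catenin experiment, whose low CHIR libraries took part in the choice and whose values are therefore given without a test, *Syt9* was higher in high than in low CHIR, at 439 and 404 against 165 and 148 in Cre-neg cells and 481 and 567 against 128 and 147 in GFP-guide cells. *Naaa* was likewise slightly above its low CHIR level in both (0.18 and 0.35 on the log2 scale), and *Elavl4* was above it in GFP-guide cells (0.73) and overlapped in Cre-neg cells (0.21). These are the 3 genes whose fall passed the test in wild-type cells, where *Sel1l3* was at -0.49 without passing it. *Kif5c*, *Sel1l3*, *Trim2*, *Vat1l* and *St8sia6* were all higher in high CHIR in both controls, from 1.495 for *Sel1l3* to 3.78 for *St8sia6* in Cre-neg cells and from 1.87 for *Vat1l* to 4.75 for *St8sia6* in GFP-guide cells. *Pcp4* was lower, at -1.90 and -0.61.

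The GFP-guide controls of the Tcf/Lef experiment allowed a test. There 5 members rose from low to high CHIR, against 6.98% of all genes tested called higher, and 2 fell, against 7.96% called lower, with a median of 1.03 against 0.0036 over all genes. *Vat1l* went from 143, 89.8 and 151 to 536, 789.8 and 697 (log2 fold change 2.41, SE 0.25, adjusted p = 6.57e-05). *St8sia6* went from 618, 865 and 648 to 3657, 5427 and 3609.6 (log2 fold change 2.56, SE 0.31, adjusted p = 0.000184), the largest rise of the set. *Trim2* (log2 fold change 1.98, SE 0.17, adjusted p = 1.69e-05), *Kif5c* (log2 fold change 1.21, SE 0.22, adjusted p = 0.00292) and *Sel1l3* (log2 fold change 1.03, SE 0.24, adjusted p = 0.0121) also rose. *Pcp4* fell from 687, 1200.1 and 732 to 76.6, 358 and 399.8 (log2 fold change -1.92, SE 0.50, adjusted p = 0.0219), and *Naaa* fell from 2033, 1751 and 1706 to 1279.9, 681 and 1263 (log2 fold change -0.82, SE 0.22, adjusted p = 0.0271). *Elavl4* (log2 fold change -0.66, SE 0.26, adjusted p = 0.117) and *Syt9* (log2 fold change -0.20, SE 0.37, adjusted p = 0.777) did not pass the test.

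Leaving out low CHIR replicate 2 of these controls left 4 members called, with *Pcp4* (-1.67, adjusted p = 0.0930), *Sel1l3* (0.88, 0.0599) and *Naaa* (-0.85, 0.0694) lost. *Naaa* was lost without low CHIR replicate 1 or high CHIR replicate 2 as well (0.0998 and 0.0641), and *Elavl4* was gained without high CHIR replicate 3 (-0.99, 0.00989). In these controls ureteric markers summed to 31.6 to 81.9 in low and 279 to 713 in high CHIR and endothelial markers to 226 to 274 and 308 to 352, without overlap, and their part in the result was not tested. The 3 tables were normalized separately and the experiments differ in genotype, transfection and time in culture, which cannot be told apart, so the dose responses were tested within each and are only set side by side between them.

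**Figure D3:**
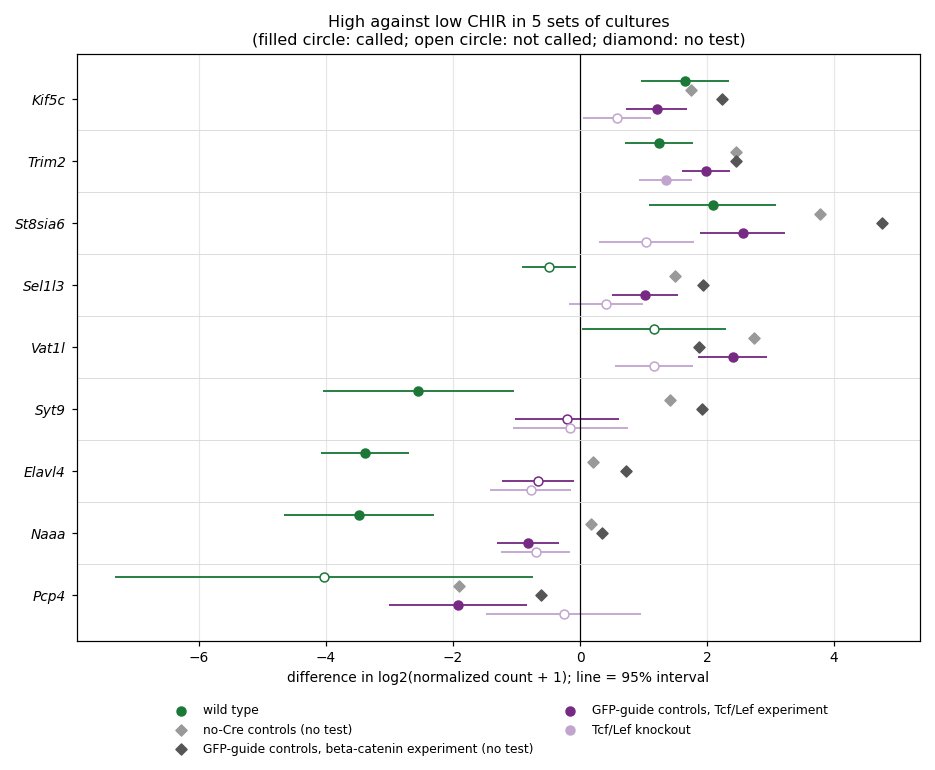
Log2 fold change from low to high CHIR for each of the 9 genes in wild-type cells, in both intact controls of the β-catenin experiment, in the GFP-guide controls of the Tcf/Lef experiment and in QKO cells, with 95% limma intervals and circles (filled for calls) where the contrast was tested and diamonds where it was not. *Kif5c*, *Trim2*, *Vat1l* and *St8sia6* lie above 0 in all 5 cultures and *Pcp4* under 0 in all 5, whereas *Elavl4*, *Syt9* and *Naaa* lie on both sides of 0. *Sel1l3* lies under 0 in wild-type cells, where it was not called, and above 0 in the others.

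Knockout of the 4 Tcf/Lef genes compared the low CHIR level of the set with and without guides to the DNA-bound partners of β-catenin. In low CHIR no member was lower and passed the limma test in QKO cells, where 0% of all genes tested were called lower and 0.0063% were called in either direction. At an unadjusted p under 0.05 there were 2 members, both higher, and 706 of all genes. The median difference was 0.084, against 0.038 over all genes. This contrasts QKO cells with GFP-guide controls of their own, with n = 2 and n = 3 libraries, so a moderate fall could go undetected. The 95% limma intervals of single genes give its bounds, for a knockout that may be partial. RNA of none of the 4 targeted genes passed the test in low CHIR. With single guides the paper's staining found Tcf7 protein less fully removed than the others. The contrast therefore cannot decide whether the low CHIR level needs these factors.

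*Sel1l3* was 1949, 1036 and 998 in controls and 1403 and 1206 in QKO cells, a difference of 0.042 with a 95% interval of -0.54 to 0.62. *Pcp4* was 687, 1200.1 and 732 in controls and 1126 and 1149 in QKO cells, a difference of 0.43 (-0.79 to 1.65). *St8sia6* was 618, 865 and 648 against 587 and 702, a difference of -0.13 (-0.88 to 0.62). The control and QKO libraries overlapped for each of these 3 genes.

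*Kif5c* was the member with the lowest value, at 779, 836 and 597 in controls and 488 and 603 in QKO cells (-0.43, interval -0.96 to 0.11). *Naaa* showed -0.19 (-0.74 to 0.35), *Syt9* 0.084 (-0.83 to 0.99) and *Elavl4* 0.57 (-0.065 to 1.21). *Trim2* lay the other way, at 889, 1083 and 1423 in controls and 2050.5 and 2442 in QKO cells without overlap (log2 fold change 1.01, SE 0.19, adjusted p = 0.333). Replicate numbers were taken to pair the libraries of this experiment, which the labels do not state. With the number as a block *Trim2* passed the test (1.00, adjusted p = 0.0145), with 15 genes higher and 1 lower in all, as it did with DESeq2 (0.98, 0.00243). *Vat1l* was 143, 89.8 and 151 against 201 and 233, also without overlap (log2 fold change 0.79, SE 0.28, adjusted p = 0.904). The share of all genes without overlap was not counted for this contrast.

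**Figure D4:**
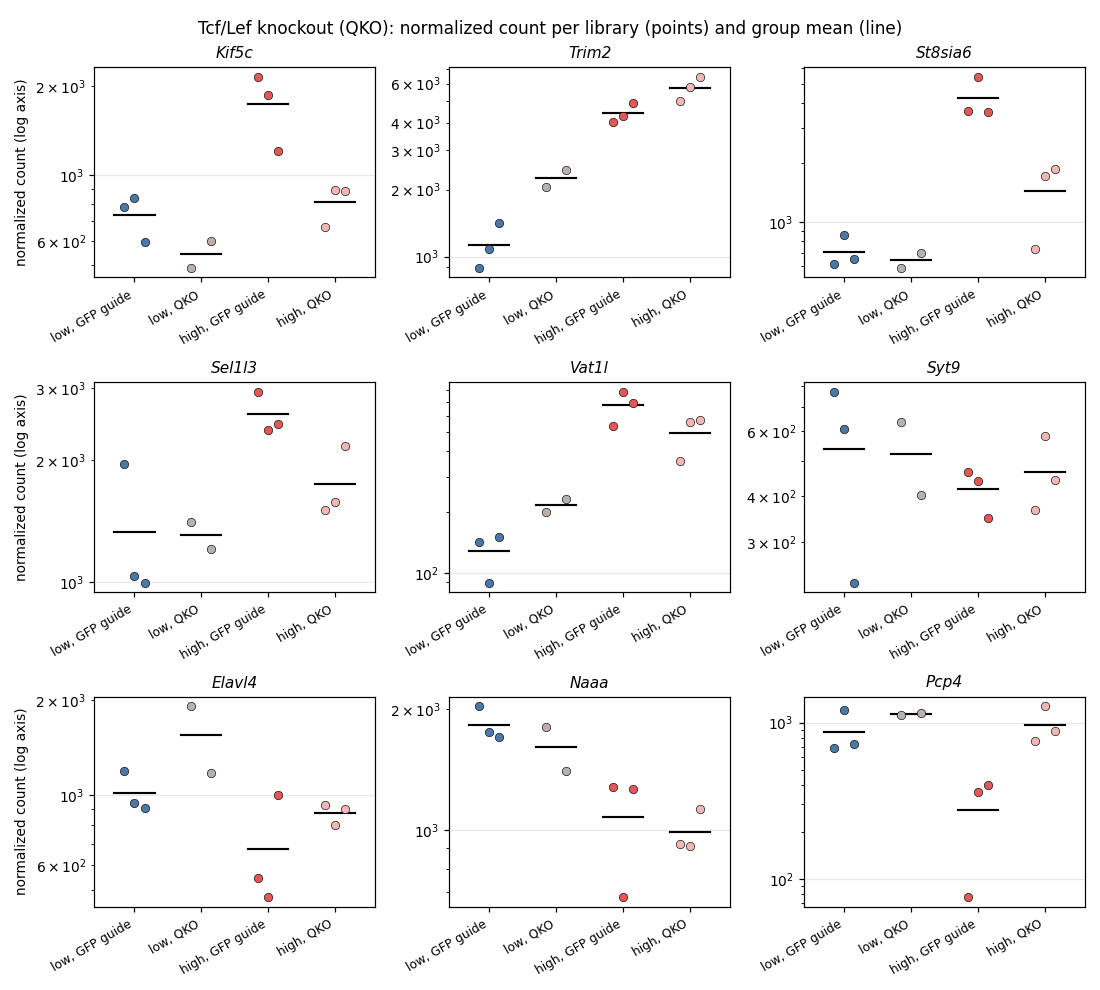
Normalized counts of the 9 genes in each library of the Tcf/Lef experiment (vertical axis, log scale) for GFP-guide controls and QKO cells in low and high CHIR, with a point for each of the 2 or 3 libraries and a line at the group mean. In low CHIR control and QKO libraries overlap for all genes but *Trim2* and *Vat1l*, whose QKO libraries lie above the controls. Neither passed the limma test without the replicate block, and the share of all genes without overlap was not counted.

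In high CHIR the knockout lowered 2 members, *St8sia6* and *Kif5c*, against 0.491% of all genes tested called lower, and no member passed the test as higher, against 2.05% of all genes. *St8sia6* was 3657, 5427 and 3609.6 in controls and 731, 1706 and 1854 in QKO cells (log2 fold change -1.65, SE 0.31, adjusted p = 0.0151). *Kif5c* was 2139, 1856 and 1205 in controls and 672, 893 and 882 in QKO cells (log2 fold change -1.06, SE 0.22, adjusted p = 0.0274). Both had climbed with CHIR in the controls, and in both the QKO libraries lay under all control libraries but within or above the range of the low CHIR controls.

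*Pcp4*, which high CHIR had lowered in these controls, was 76.6, 358 and 399.8 in controls and 762.3, 1274 and 883 in QKO cells, 3.50 times the control mean and without overlap (log2 fold change 2.09, SE 0.50, adjusted p = 0.0509). With the replicate number as a block it passed the test (2.09, adjusted p = 0.00563), with 841 genes higher and 340 lower in all against 326 and 78 without it, and it passed with DESeq2 as well (1.80, 0.00213). The QKO level in high CHIR reached that of the controls in low CHIR, 687, 1200.1 and 732. *Sel1l3* (log2 fold change -0.58, SE 0.24, adjusted p = 0.285), *Trim2* (log2 fold change 0.38, SE 0.17, adjusted p = 0.336) and *Vat1l* (log2 fold change -0.46, SE 0.25, adjusted p = 0.450) did not pass, nor did *Elavl4* (0.46), *Syt9* (0.14) and *Naaa* (-0.069), and the median over the set was -0.069 against 0.00088 over all genes.

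The high CHIR calls rested on few libraries. *Kif5c* lost its call without any 1 of 5 libraries (adjusted p = 0.0625 to 0.128), the exception being control replicate 3. *St8sia6* lost its call without control replicate 2 (-1.46, 0.0873), which left no member called, and *Pcp4* gained it without control replicate 1 (1.33, 0.0286) or 3 (2.51, 0.0270). Control replicate 1 also carried blood markers, summed at 2769 against 7.44 to 24.9 normalized counts in the other high CHIR libraries of the table, and the lowest *Pcp4* of its group, and without that library the *Pcp4* difference was 1.33. Stroma markers summed to 251 to 3092 in controls and 591 to 7283 in QKO cells, and within each replicate number the QKO library had the higher sum. Ureteric markers, all 7 in the table, summed to 279 to 713 in controls and 155 to 269 in QKO cells, without overlap, with *Wnt11* and *Wnt9b* at 0 in at least 1 control library. The part of either list in the result was not tested.

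Whether the knockout acted differently in high than in low CHIR was tested directly, and no member passed the limma test, where 0.126% of all genes did. There were 4 members and 809 genes at an unadjusted p under 0.05, and edgeR and DESeq2 called no member. The differences of differences were 1.66 for *Pcp4* (0.027 to 3.30), -1.52 for *St8sia6* (-2.53 to -0.51), -1.24 for *Vat1l* (-2.06 to -0.43) and -0.63 for *Trim2* (-1.19 to -0.066). With the replicate number as a block *St8sia6* passed (-1.70, adjusted p = 0.0400), among 98 genes higher and 38 lower, against 17 and 3 without it.

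**Figure D5:**
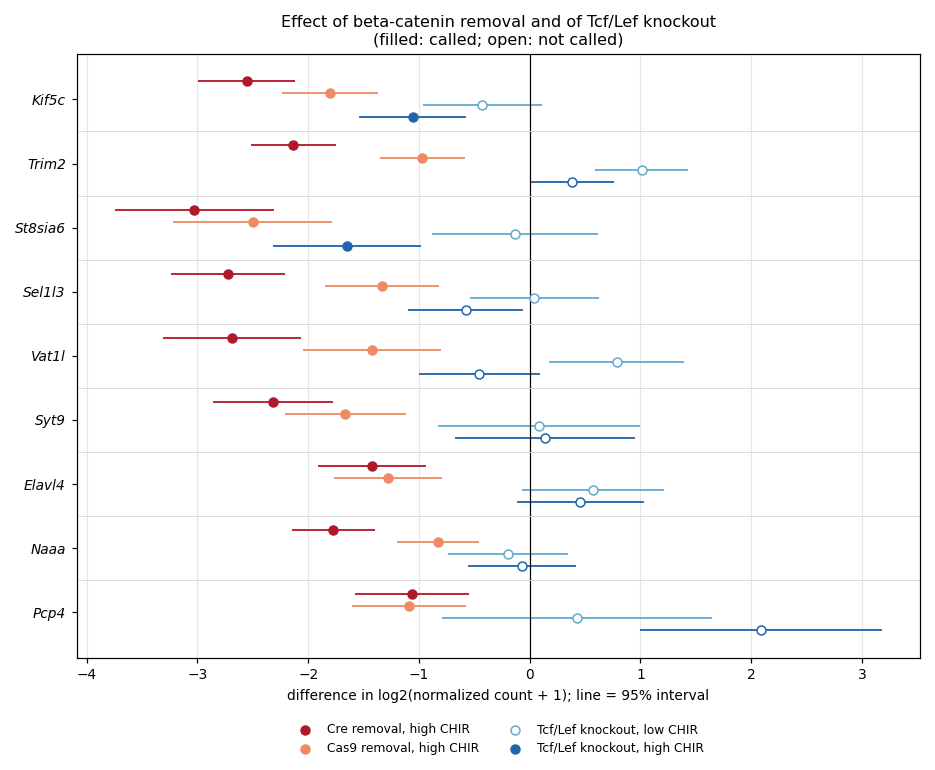
Log2 fold changes of the 9 genes on log2(normalized count + 1) after β-catenin removal in high CHIR (Cre and Cas9) and after Tcf/Lef knockout (low and high CHIR), with lines for 95% limma intervals and filled points for calls. All removal values lie under 0, from -3.03 to -0.83, whereas Tcf/Lef knockout values lie on both sides of 0, from -1.65 to 2.09.

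Within QKO cells the step from low to high CHIR still raised *Trim2*, from 2050.5 and 2442 to 5010.0, 5811 and 6418 (log2 fold change 1.35, SE 0.19, adjusted p = 0.00336), the only member called there, against 1.42% of all genes called higher and 1.12% called lower. *Vat1l* (log2 fold change 1.16, SE 0.28, adjusted p = 0.0527) passed with the block (1.17, adjusted p = 0.0245), with edgeR (1.18, 0.0496) and with DESeq2 (1.19, 0.00154). *St8sia6* (log2 fold change 1.04, SE 0.34, adjusted p = 0.155) passed with DESeq2 (1.15, 0.0202), and both genes passed without QKO high CHIR replicate 1 (1.38, 0.0318, and 1.47, 0.00867). *Pcp4*, at -0.26 (-1.48 to 0.96), did not pass the test, and the median over the set was 0.41 against -0.013 over all genes.

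Compared per kilobase of exon, so that genes of different length can be set side by side, *Pcp4* was the most abundant of the set in wild-type cells in low CHIR, with a mean of 1134 normalized counts per kilobase, followed by *Naaa* at 482, *Elavl4* at 245, *Sel1l3* at 199, *Kif5c* at 115, *Syt9* at 101, *Trim2* at 78.7, *Vat1l* at 29.8 and *St8sia6* at 22.8. In high CHIR the order on the same scale was led by *Kif5c* at 388, *Pcp4* at 236 and *Trim2* at 185, and *Syt9* was last at 24.3. In low CHIR the libraries of *Kif5c* and *Syt9*, of *Syt9* and *Trim2* and of *Vat1l* and *St8sia6* overlap per kilobase, so the order of these neighbours is not settled, and in high CHIR the libraries of every pair of neighbours overlap, those of *Pcp4* spanning all of *Trim2* and those of *Syt9* overlapping *Elavl4*, so no place in that order is settled by its neighbours. Exon length is that of all annotated transcripts of a gene merged, which is long for *Trim2*.

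The genes lie on 7 chromosomes and do not form a cluster. On GRCm38 with the GENCODE annotation, *St8sia6* (ENSMUSG00000003418) spans chr2:13651021-13794064 and *Kif5c* (ENSMUSG00000026764) chr2:49619298-49774778. *Sel1l3* (ENSMUSG00000029189) spans chr5:53107083-53213927 and *Naaa* (ENSMUSG00000029413) chr5:92257659-92278170. *Trim2* (ENSMUSG00000027993) lies at chr3:84160439-84306877, *Elavl4* (ENSMUSG00000028546) at chr4:110203722-110351909, *Syt9* (ENSMUSG00000062542) at chr7:107370728-107548656, *Vat1l* (ENSMUSG00000046844) at chr8:114205612-114374071 and *Pcp4* (ENSMUSG00000090223) at chr16:96467606-96525793.

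Pairs of members moved together in the β-catenin experiment and less uniformly in the others. Over the 16 libraries of the β-catenin experiment all 36 pairs of members had a positive Pearson r, with a median of 0.84, whereas over the 11 Tcf/Lef libraries 17 of 36 pairs were positive (median -0.063) and over the 9 wild-type libraries 19 of 36 (median 0.065). These values are descriptions, since libraries of a table share their normalization and possibly cultures, and the removal contrasts chose the genes. The genes whose pattern was most like the mean of the set, over all 36 libraries and the 11703 genes that averaged 50 or more normalized counts in every table, were *Gpc5* (r = 0.872), *Msi2* (0.859), *Sall1* (0.858), *Fgfr2* (0.858) and *Pax2* (0.858). Of the members themselves, each of which is part of that mean, *Sel1l3* was closest to it, at 0.939, and *Pcp4* furthest, at 0.284. The 36 libraries include the low CHIR ones that chose the set. *Gpc5* itself held rank 2 of 16780 genes by the smaller of both falls in those libraries, so its likeness is partly that of the choice.

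Genes related to the members by family were taken as a list that was not picked for how they moved. Of 26 such relatives, among them the other *Elavl*, *Kif5*, synaptotagmin and *St8sia* genes, 20 were tested in wild-type cells, and from low to no CHIR 1 was lower, *St8sia4* (-3.58, adjusted p = 0.0369), with a median of 0.047 over the list. In high CHIR 3 of 16 tested were lower after Cre, 1 after *Ctnnb1* guides, and 1 of 17 was lower in QKO cells. In QKO cells in low CHIR none passed, and the relatives with the lowest p were *Trim71* (-0.56), *Trim32* (0.48) and *Sel1l* (0.20).

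A list of 16 canonical Wnt feedback genes served as a reference for the signal itself. Between no and low CHIR in wild-type cells 2 of 16 were lower in no CHIR, the transcription factor *Lef1* (-2.02, adjusted p = 0.0474) and the receptor *Tnfrsf19* (-3.51, 0.0146), and 1 was higher, the transcription factor *Myc* (1.05, 0.0191), with a median of -0.80. From low to high CHIR 9 of 16 rose and none fell in wild-type cells, with a median of 2.68, where 3 of the 9 members rose and 3 fell. Removal in high CHIR lowered 9 of 15 with Cre and 6 of 15 with guides and raised 2 and 1. In QKO cells 1 of 15 was lower and 1 higher in high CHIR, *Tcf7* itself and the cyclin *Ccnd1* (1.53, adjusted p = 0.0285), and in low CHIR none passed, with the lowest p for *Tcf7* (-1.23), *Tnfrsf19* (1.10) and *Ccnd1* (0.69). Both lists were compiled with earlier results of these data known, and their counts are descriptions beside those of the set.

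The 10 nephron progenitor genes, which mark the renewing state, were counted in the same way. In no CHIR 2 were called higher than in low CHIR, *Cited1* (2.61, adjusted p = 0.00322) and *Osr1* (2.29, 0.00372), and none was called lower, with a median of -0.25 over the list. In high CHIR 7 were lower than in low CHIR and none higher. Cre removal in high CHIR raised 4 of them and lowered 3, *Ctnnb1* guides raised 3 and lowered 2, and Tcf/Lef knockout in high CHIR raised 4 and lowered none. In QKO cells in low CHIR none passed, with the lowest p for *Six2* (-0.70), *Meox1* (0.82) and *Pax2* (0.51).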

How the data were processed

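RNA was measured in 36 libraries of mouse NPCs. Per the labels and the study's methods the authors made SMARTer cDNA, sequenced it as 150-base paired reads, aligned it with STAR 2.5.1a1 to a combined mouse GRCm38 and human GRCh38 reference, and counted uniquely aligned reads per gene with featureCounts 1.4.6-p52. Reads that fit both species equally are lost, which can lower the counts of genes conserved between them. The deposited signal values are counts divided by DESeq2 size factors, in 3 tables normalized separately. All values (100%) were whole multiples of 1 step per library within a tolerance of 0.01, and reads were recovered from them. The 8 tables of the authors' own comparisons (fold changes and p-values) and the 50 per-sample columns of the files left out were not used.

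Here limma 3.58.1 (trend, R 4.3.3) was fitted to log2(normalized count + 1) over all libraries of a table, for genes averaging at least 10 normalized counts, with Benjamini-Hochberg adjustment over all genes. Calls required an adjusted p below 0.05 together with a log2 change of 0.5 or more in size. The scale understates changes of low genes. Alternatives were a pseudocount of 0.5, no filter, a spread from the compared groups alone, TMM rescaling, edgeR 4.0.16 and DESeq2 1.42.0 on recovered reads, the replicate number as a block, a fold threshold of 1 and leaving out each library. In the Tcf/Lef table same-numbered libraries deviated together (r = 0.249 to 0.637), so the numbers were taken to pair libraries. The labels do not state such a pairing. The fits were tested on simulated data. The 9 genes were all named. Of the other lists those called between no and low CHIR in wild type or in QKO cells in low CHIR were named, or the 3 with the lowest p, and the 5 genes most like the set by Pearson r. The genes and lists were chosen with earlier results of these data known.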

Additional observations from a re-analysis of the deposited data

Results flagged for a closer look

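For 3 of the 9 genes the step from low to high CHIR went one way in every library of one culture and the other way in every library of another. The share of all genes that do so was not counted, and the controls of the β-catenin experiment have only n = 2 libraries a group. The difference between the cultures was not tested, since the tables were normalized separately and the low CHIR libraries of the β-catenin experiment took part in choosing the genes.

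*Elavl4* was lower in high than in low CHIR in wild-type cells, by a log2 fold change of -3.39, and higher in the GFP-guide controls of the β-catenin experiment, at 0.73. *Syt9* was lower in wild-type cells, at -2.54, and higher in the Cre-neg controls, at 1.42, and in the GFP-guide controls of that experiment, at 1.92. *Naaa* was lower in wild-type cells, at -3.48, and in the GFP-guide controls of the Tcf/Lef experiment, at -0.82, and higher in the Cre-neg controls, at 0.18, and in the GFP-guide controls of the β-catenin experiment, at 0.35. The summed level of the 10 nephron progenitor markers in high CHIR was 4383 to 9799 normalized counts in wild-type libraries and 13287 to 17994 in the libraries of the β-catenin experiment. In the GFP-guide controls of the Tcf/Lef experiment, where *Naaa* was lower, it was 14642 to 16011, within the range of the β-catenin experiment. The part of this sum in the differences between cultures was not tested.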

How the results depend on the processing

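With n = 2 or 3 libraries a group, calls were more fragile than directions. Without 1 library the calls over all genes moved too. They ran from 113 to 1032 between no and low CHIR and from 995 to 2207 between high and low CHIR in wild-type cells. They ran from 157 to 480 after Tcf/Lef knockout in high CHIR and from 1545 to 3112 between high and low CHIR in the Tcf/Lef controls. Without 1 library (leave-one-out) the members called were 3 to 4 between no and low CHIR in wild-type cells (5 with all libraries), 4 to 9 between high and low (6), 0 to 3 after Tcf/Lef knockout in high CHIR (2) and 4 to 8 between high and low CHIR in the Tcf/Lef controls (7). For Cas9 removal and within QKO cells such fits can leave a group with 1 library. No counts are given for them, though calls changed there too. Directions turned without 1 library for small differences, with ranges of -0.12 to 0.17 for *Pcp4* and -0.49 to 0.20 for *Elavl4* (Cre minus Cas9), -0.43 to 0.43 for *Syt9*, -0.13 to 0.35 for *Sel1l3* and -0.26 to 0.021 for *St8sia6* (QKO, low CHIR), -0.041 to 0.29 for *Syt9* and -0.37 to 0.086 for *Naaa* (QKO, high CHIR), -0.47 to 0.23 for *Elavl4*, -0.29 to 0.57 for *Syt9* and -0.18 to 0.31 for *Naaa* (QKO in high minus low CHIR), and, for *Syt9* from low to high CHIR, -0.72 to 0.14 in controls and -0.48 to 0.18 in QKO cells. For QKO in low CHIR *Syt9* turned with edgeR (-0.049) and DESeq2 (-0.054) and *Sel1l3* with edgeR (-0.029) and DESeq2 (-0.033). The cause was not tested. DESeq2 called 1 member for Cre minus Cas9 and 1 for QKO in low CHIR (0 in limma), and 3 from low to high CHIR in QKO cells, where edgeR called 2 (1 in limma).

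With the replicate block 1 member was called for QKO in low CHIR, 1 for QKO in high minus low CHIR and 2 from low to high CHIR in QKO cells, and the block gave -0.047 for *Sel1l3* and 0.046 for *St8sia6* in the first and -0.079 for *Syt9* in the second. The block also called *Pcp4* for QKO in high CHIR and changed no other member's call in the Tcf/Lef table. In the other tables the numbers were not taken to pair libraries, although same-numbered libraries deviated together in the β-catenin table as well (2 pairs, r = 0.196 to 0.491). In wild-type cells r was -0.0156 to 0.272. In the β-catenin table the block moved the genes called after Cre removal in high CHIR from 990 higher and 462 lower to 1718 and 921, after Cas9 removal from 578 and 276 to 1333 and 800, and for Cre minus Cas9 from 0 and 0 to 17 and 3.

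Over all genes, DESeq2 called 881 higher and 903 lower between no and low CHIR (412 and 453 in limma), 927 and 552 after Cas9 removal in high CHIR, 16 and 5 for Cre minus Cas9, 21 and 1 for QKO in low CHIR (1 and 0), 562 and 297 in high CHIR (326 and 78), 108 and 50 for their difference (17 and 3), and 440 and 448 from low to high CHIR in QKO cells (225 and 178, 506 and 446 with the block). The compared groups alone gave 736 and 831 between no and low CHIR, 430 and 194 after Cre removal, 935 and 793 after Cas9 removal and 0 for QKO in low CHIR. No filter gave 4 for QKO in low CHIR, where all 4 were higher. A fold threshold of 1 gave 265 and 234 between no and low CHIR, 1212 and 1450 between high and no (1983 and 2087), and 756 and 812 in the Tcf/Lef controls (1108 and 1264). For QKO in high minus low CHIR the compared groups are the whole table, so that alternative gave nothing new. Rescaling by TMM shifted the median of all genes by less than 0.03 in each comparison.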
